A study of Mus musculus with 96 samples.

Results

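The stem-loops mir-132 and mir-212 are the precursors of a pair of neuronal microRNAs, and they were taken from the deposited table by their miRBase IDs, MI0000158 for mir-132 and MI0000696 for mir-212. They are 2 of the 1187 stem-loop IDs in the table, and both passed the filter on low counts that 434 IDs passed. The names come from the definition of the pair, since the files hold IDs alone. The stem-loop lengths that the deposited FPKM values imply, 66 bases for MI0000158 and 91 bases for MI0000696, equal the lengths of the RefSeq hairpins of Mir132 and Mir212.

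A microRNA hairpin is cut from a longer primary transcript, and a short strand of it is loaded into the silencing complex, where bases 2 to 8, the seed, pair with target messenger RNAs. In rodents mir-132 and mir-212 are processed from a single primary transcript whose synthesis is induced by neuronal activity and neurotrophins through the transcription factor CREB. The pair is known for roles in dendrite growth, synaptic plasticity and neuronal survival. Huntingtin (Htt), the gene whose expanded CAG repeat causes Huntington's disease, was the gene altered in these mice.

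The tissue was the cerebellum of C57BL/6 mice aged 6 or 10 months, and its small RNA was sequenced. Each knock-in mouse carried 1 wild-type Htt allele and 1 allele with human HTT exon 1 and a repeat of 20, 50, 92 or 140 CAG (Het Q20, Q50, Q92 and Q140), and wild-type (WT) mice came from the Q20 and the Q50 line, so that each of the 6 groups held 4 females and 4 males at each age and there were 96 libraries in all. Q92 and Q140 mice were housed with mice of their own line and had no WT group here, so line and CAG length cannot be told apart for them. Cages held mice of 1 sex, so sex and cage cannot be told apart either. The study describes separate animals, and the mutant allele is present in every cell of the body. As whole tissue was sequenced, fewer cells that make the pair and less RNA per cell cannot be told apart.

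The libraries held between 5435778 and 7934044 estimated counts. As in the methods of the study, libraries whose connectivity to the rest was too low (a standardized Z.k below -5) were dropped. They were replicate 2 of the Q20 females, at -6.68, and replicate 4 of the Q92 males, at -6.1, both of 6 months, which left 46 libraries at 6 months and 48 at 10 months. The library names carry an L tag that the labels do not define (2, 3 or 4 at 6 months, 1 or 8 at 10 months), and it was kept as a term in the fits. Htt is not a microRNA, so the targeted gene could not be checked in these files. Cell type markers were written by name and could not be looked up by ID, so the labelled tissue was not checked against them.

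The 3p strands of the pair carry the same seed, and the mature sequences are shown because the seed that the pair shares lies in them. RefSeq (GRCm38.p6, the mm10 build used by the study) gives them as follows, 5′ to 3′, with the seed in capitals.
mmu-miR-132-3p: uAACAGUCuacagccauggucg
mmu-miR-212-3p: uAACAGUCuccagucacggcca
mmu-miR-132-5p: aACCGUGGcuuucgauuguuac
mmu-miR-212-5p: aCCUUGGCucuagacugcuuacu
Of the 1679 mature mouse names in the RefSeq table only these 2 carried the seed of the 3p strands, and each 5p seed occurred once. Over 22 positions counted from the 5′ end the 3p strands had 17 bases in common, with the first 9 identical and the differences A10C, C14U, U17C, U20C and G22A (miR-132-3p first). The first difference lies past the seed.

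The hairpins are shown because the deposited counts are per stem-loop, with both strands of a hairpin in 1 number. The strands that become mature microRNAs are in capitals.
Mir132: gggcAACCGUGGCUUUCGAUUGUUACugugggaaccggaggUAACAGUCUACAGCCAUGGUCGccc
Mir212: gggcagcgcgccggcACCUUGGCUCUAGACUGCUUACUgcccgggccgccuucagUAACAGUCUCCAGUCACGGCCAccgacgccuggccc
Mir212 lies at chr11:75173388-75173478 and Mir132 at chr11:75173682-75173747 on the plus strand of GRCm38, with 203 bases between them. In the GENCODE vM21 annotation both lie in intron 1 (75172598 to 75173977) of the 3-exon long non-coding RNA 1700016P03Rik. The counts of both stem-loops were whole numbers within 0.001 in every library.

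In all cerebellar libraries mir-132 had the higher count of the pair. It had between 5645 and 10982 counts per library and mir-212 between 864 and 1957, so the counting error alone was 1.33% of the count or less for mir-132 and 3.40% or less for mir-212. In CPM, the count scaled to a fixed library total, mir-132 stood at 1176 ± 152 (SD, n = 94), from 882 to 1604, and ranked 73 of the 1033 stem-loops with any count. The CPM of mir-212 was 211 ± 25.0 (SD, n = 94), from 135 to 282, at rank 143. Per stem-loop length, in FPKM, mir-132 stood at 17819 ± 2296 and mir-212 at 2318 ± 275 (SD, n = 94). The spread between animals, as the biological coefficient of variation fitted by edgeR, was 11.8% at 6 months and 9.64% at 10 months for mir-132, and 9.54% and 10.7% for mir-212. The median over the 434 stem-loops tested was 12.1% and 13.5%.

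**Figure D1:**
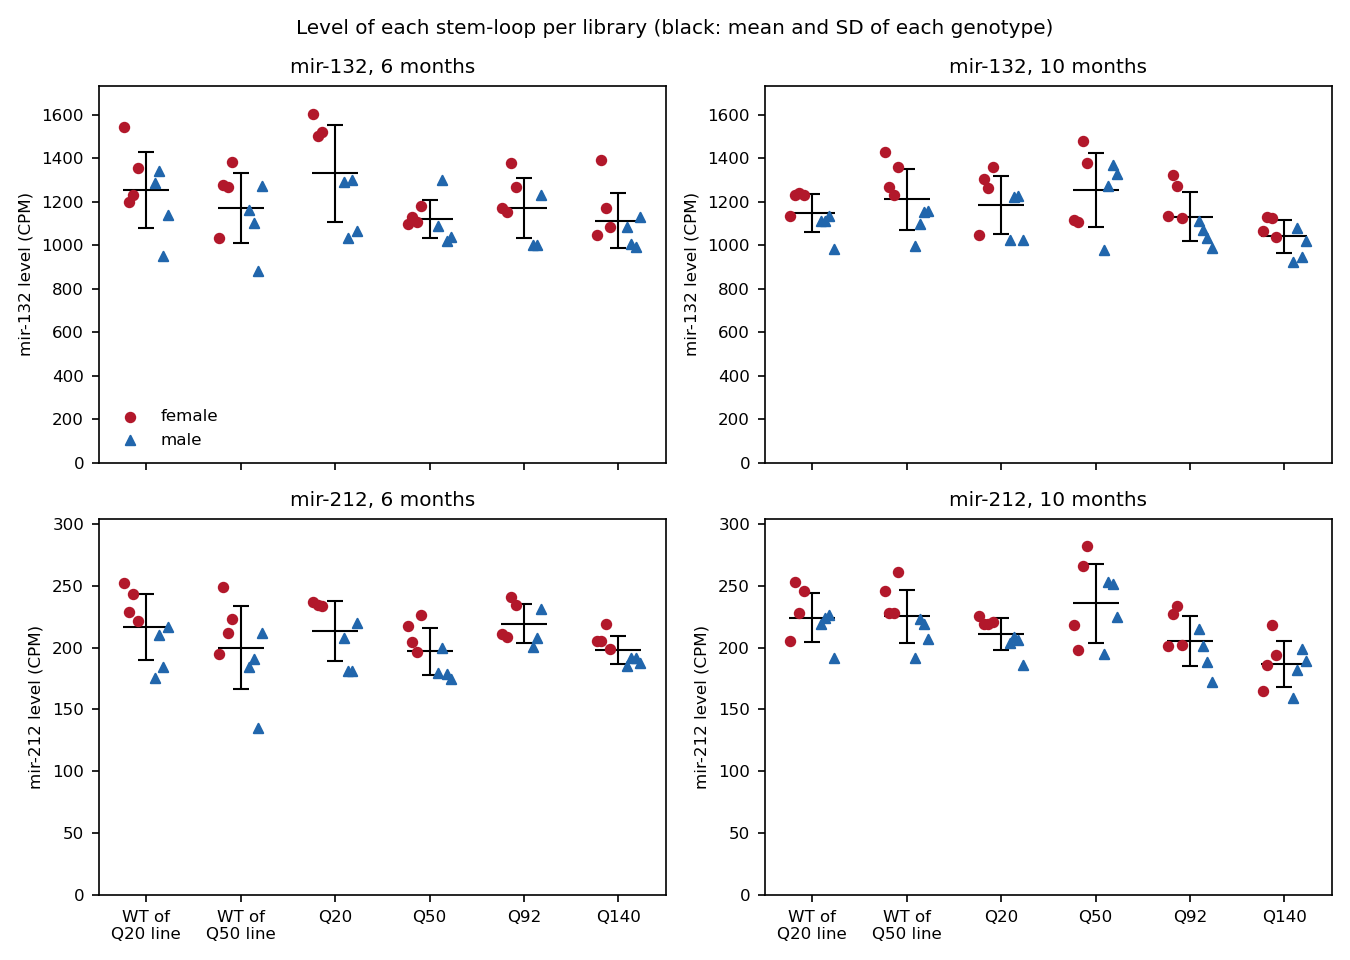
Each point is the level of mir-132 (top) or mir-212 (bottom) in 1 library in CPM, by genotype on the horizontal axis, at 6 months (left) and 10 months (right), with females as circles and males as triangles, and black lines give the mean and SD of each genotype. The 3 Q20 females at 6 months have the highest mean of mir-132 of any sex and genotype (1543 CPM), and the Q140 group has the lowest mean of both stem-loops at 10 months (1041 and 187 CPM).

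Ordered by mean CPM of mir-132 at 6 months, the groups stood at 1331 ± 224 in Q20 (SD, n = 7), 1255 ± 175 in WT of the Q20 line, 1172 ± 161 in WT of the Q50 line, 1172 ± 138 in Q92 (n = 7), 1120 ± 88.5 in Q50 and 1113 ± 128 in Q140 (SD, n = 8 where not given). Every neighbouring pair in this order differed by less than the smaller of their SDs. At 10 months the order of mir-132 was Q50 with 1254 ± 170 CPM, WT of the Q50 line with 1211 ± 141, Q20 with 1184 ± 134, WT of the Q20 line with 1146 ± 87.2, Q92 with 1132 ± 114 and Q140 with 1041 ± 76.0 (SD, n = 8). Q92 and Q140, 90.3 CPM apart, were the only neighbours there further from each other than the smaller of their SDs.

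For mir-212 at 6 months the order ran from Q92 (219 ± 15.7 CPM, n = 7) through WT of the Q20 line (216 ± 26.6), Q20 (213 ± 24.3, n = 7), WT of the Q50 line (200.1 ± 33.4) and Q140 (198 ± 11.5) to Q50 (197 ± 18.8), again with every neighbouring pair closer than the smaller SD (n = 8 where not given). At 10 months it ran from Q50 (236 ± 31.9 CPM) through WT of the Q50 line (225 ± 21.5), WT of the Q20 line (224 ± 19.7), Q20 (211 ± 12.7) and Q92 (205 ± 20.1) to Q140 (187 ± 18.8; SD, n = 8). Here only WT of the Q20 line and Q20, 13.0 CPM apart, were further from each other than the smaller SD. Q140 was thus the lowest group for both stem-loops at 10 months.

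The comparison of Q140 with the controls (Q20 and all WT libraries) asks whether the pair differs in mice with the longest repeat. Over both ages both stem-loops fell in Q140, by 0.14 on the log2 scale for mir-132 (SE 0.04, edgeR adjusted p = 0.0288) and by 0.15 for mir-212 (SE 0.04, edgeR adjusted p = 0.0173). The background was 5.07% of the 434 stem-loops called in either direction and 2.3% called lower, and the median change of all tested was -0.01. At 6 months the CPM of mir-132 in Q140 ran from 991 through a median of 1084 to 1394 (n = 8), and in controls from 882 through 1271 to 1604 (n = 23). At 10 months it ran from 923 through 1052 to 1130 in Q140 and from 980 through 1188 to 1428 in controls (n = 24). The ranges overlapped at both ages, while 7 of 8 Q140 libraries at 6 months and 8 of 8 at 10 months lay under the control mean.

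mir-212 moved in the same direction. Its CPM in Q140 ran from 185 through a median of 195 to 219 at 6 months and from 159 through 188 to 219 at 10 months, against 135 through 212 to 252 and 186 through 219.9 to 261 in controls. The Q140 libraries at 10 months were at the lower end of the control range, with 1 of 24 controls under the Q140 median, although the ranges overlapped. By CPM 7 of 8 and 8 of 8 Q140 libraries were under the control mean, and on the TMM-scaled log2 values that the test used 6 of 8 and 7 of 8 were.

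At single ages mir-212 passed the test at 10 months alone, where it fell by 0.23 (SE 0.06, edgeR adjusted p = 0.0336, 4th lowest p of all stem-loops), with 2.3% called at that age. The other values did not pass. They were -0.16 (SE 0.05, edgeR adjusted p = 0.0966) for mir-132 at 10 months, and at 6 months -0.12 (SE 0.07, edgeR adjusted p = 0.378) for mir-132 and -0.07 (SE 0.06, edgeR adjusted p = 0.53) for mir-212, with 2.3% called. That the Q140 difference differs between the ages did not pass a test of the interaction. It gave -0.03 for mir-132 (SE 0.08, edgeR adjusted p = 0.906) and -0.14 for mir-212 (SE 0.08, 95% interval -0.30 to 0.02, edgeR adjusted p = 0.744), with 0% called by edgeR (28 at an unadjusted p under 0.05, 1 by DESeq2 and 0 by limma).

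The Q140 calls were close to the threshold, and single libraries ended some of them. Without Q140 female replicate 1 of 10 months, the female with the lowest mir-212 (165 CPM), edgeR gave an adjusted p of 0.0539 for mir-132 and 0.0546 for mir-212 over both ages, and mir-212 at 10 months was -0.19 (edgeR adjusted p = 0.163). The call of mir-132 over both ages also ended without Q140 female replicate 4 of 10 months (edgeR adjusted p = 0.0649) or without Q140 female replicate 4 of 6 months (0.0549). The call of mir-212 at 10 months ended without Q140 male replicate 1 (edgeR adjusted p = 0.124), female replicate 4 (0.0913), female replicate 2 (0.0583), male replicate 2 (0.0531) or the control male replicate 3 of WT of the Q20 line (0.0509). With WT libraries alone as controls mir-132 over both ages stood at -0.11 (edgeR adjusted p = 0.124), while mir-212 over both ages had an adjusted p of 0.0356 or lower in all 12 settings other than those that leave out a library (edgeR, DESeq2 or limma). Without the control male replicate 1 of WT of the Q50 line mir-132 at 10 months passed (edgeR adjusted p = 0.0395). Both stem-loops stayed lower in Q140 in each of these fits.

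Within L tags, Q140 minus controls gave -0.20, -0.13 and 0.15 for mir-132 in tags 2, 3 and 4 at 6 months, the last resting on 1 Q140 library, and -0.11 and -0.22 in tags 1 and 8 at 10 months (mean log2 CPM with TMM). The same differences for mir-212 were -0.04, -0.12, 0.09, -0.24 and -0.25. Both stem-loops were thus lower in Q140 in every tag that held more than 1 Q140 library. These differences took no account of sex. At 10 months tag 1 held Q140 females alone, and all Q140 males were in tag 8. Male minus female in tag 8, over all genotypes, was -0.21 for mir-132 and -0.20 for mir-212.

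Q92 and Q50 gave no call for either stem-loop. In Q92 over both ages mir-132 was at -0.04 (95% interval -0.13 to 0.04, edgeR adjusted p = 0.854) and mir-212 at -0.01 (-0.09 to 0.07, edgeR adjusted p = 0.976), with 0% of stem-loops called by edgeR, DESeq2 or limma (25 at an unadjusted edgeR p under 0.05). In Q50 over both ages mir-132 was at -0.08 (-0.16 to 0.01, edgeR adjusted p = 0.848) and mir-212 at -0.004 (-0.08 to 0.07, edgeR adjusted p = 0.981), with 0% called by edgeR, DESeq2 or limma (29 at an unadjusted edgeR p under 0.05). At 6 months mir-132 in Q50 stood at -0.17 (SE 0.07), the second lowest p of all stem-loops at that age (unadjusted p = 0.0188 in edgeR), and the edgeR adjusted p was 0.895 with 0% called (13 at an unadjusted edgeR p under 0.05, 0 by DESeq2 and limma). At 10 months the Q50 values were 0.02 and 0.03 (edgeR adjusted p = 0.879 and 0.869), with 3.69% called. Q140, Q92 and Q50 were compared with the same control libraries.

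Q20 and Q50 were also compared with the WT mice of their own lines. Q20 against its WT littermates gave 0.07 for mir-132 (SE 0.05, edgeR adjusted p = 0.808) and -0.05 for mir-212 (SE 0.05, edgeR adjusted p = 0.865) over both ages, with 1.15% called. Q50 against its WT littermates gave -0.04 for mir-132 (SE 0.05, edgeR adjusted p = 0.994) and 0.01 for mir-212 (SE 0.05, edgeR adjusted p = 0.994), with 0% called (25 at an unadjusted p under 0.05, 0 by DESeq2 and limma). Neither stem-loop passed in either line.

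A further fit took the CAG length as a numeric term and set WT to 7 CAG. The changes per 100 CAG over both ages were -0.09 for mir-132 (SE 0.03, edgeR adjusted p = 0.0686) and -0.09 for mir-212 (SE 0.03, edgeR adjusted p = 0.0738), with 3% of stem-loops called. At 10 months they were -0.10 (edgeR adjusted p = 0.234) and -0.16 (edgeR adjusted p = 0.0526), with 0.461% called, and at 6 months -0.09 (0.403) and -0.03 (0.805), with 2.76% called. None passed in the main edgeR fit. For mir-212 at 10 months 2 of the 11 settings other than leaving out a library kept that result. It passed in the rest, among them edgeR with no L tag or with WT controls alone. Over both ages 5 of 11 settings for mir-132 and 6 of 11 for mir-212 kept the main result. DESeq2 put mir-132 and mir-212 over both ages at adjusted p = 0.035 and 0.0339, and mir-212 at 10 months at 0.012.

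**Figure D2:**
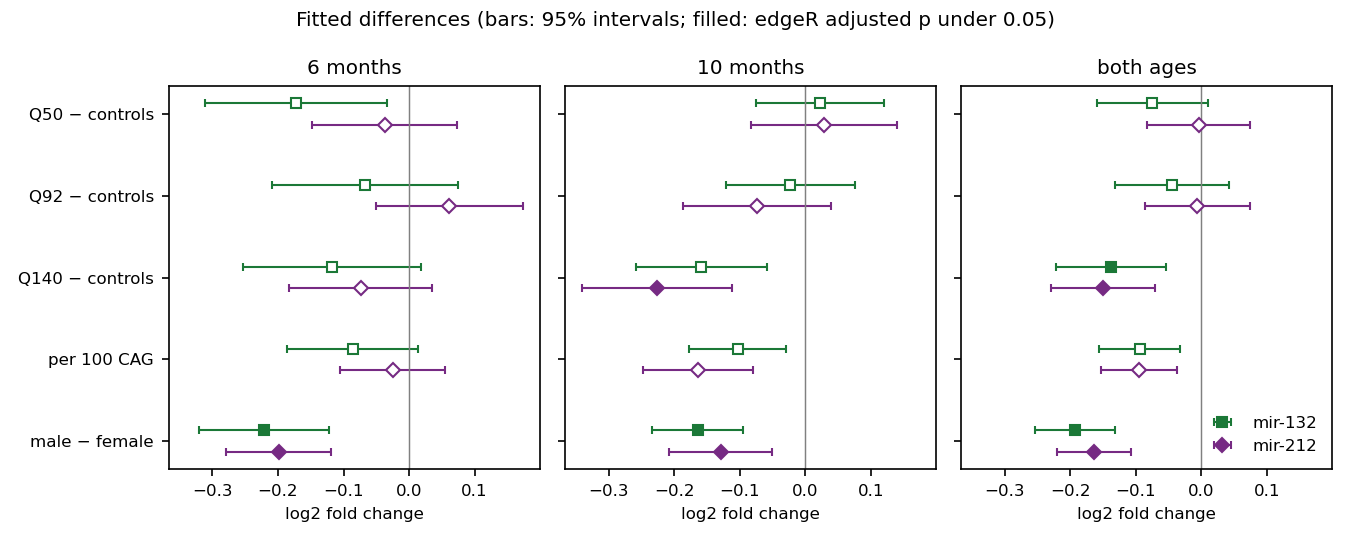
Log2 fold changes of mir-132 (squares) and mir-212 (diamonds) for 5 comparisons, with a panel for 6 months, a panel for 10 months and a panel for the combined ages, with 95% intervals as bars and filled symbols where the edgeR adjusted p is under 0.05. The male minus female symbols are filled in every panel, at -0.19 and -0.16 over both ages, and the Q140 symbols are both filled over both ages, at -0.14 and -0.15.

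Males and females differed in both members of the pair. Over both ages both stem-loops fell in males against females, mir-132 by 0.19 on the log2 scale (SE 0.03, edgeR adjusted p = 4.29e-06) and mir-212 by 0.16 (SE 0.03, edgeR adjusted p = 4.61e-05). These were the lowest and the second lowest p of all 434 stem-loops in that comparison, in which 9.91% were called in either direction and 5.99% lower in males. The median change of all tested was -0.01. Genotype and L tag were terms of the fit.

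In CPM, mir-132 ran at 6 months from 1033 through a median of 1230 to 1604 in females and from 882 through 1088 to 1341 in males (n = 23 each). At 10 months it ran from 1037 through 1231 to 1479 in females and from 923 through 1087 to 1369 in males (n = 24 each). Ranges overlapped at both ages, with 16 of 23 males at 6 months and 21 of 24 at 10 months under the female median. The change was -0.22 at 6 months (SE 0.05, edgeR adjusted p = 0.0116) and -0.16 at 10 months (SE 0.04, edgeR adjusted p = 0.00559), with 1.15% and 6.91% of stem-loops called.

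For mir-212 the separation was clearest at 6 months, where the CPM ran from 195 through a median of 221 to 252 in females and from 135 through 191 to 231 in males. There 22 of 23 males were under the female median, and all 23 females were above the male median. At 10 months it ran from 165 through 223 to 282 in females and from 159 through 205 to 253 in males, with 19 of 24 males under the female median. The change was -0.20 at 6 months (SE 0.04, edgeR adjusted p = 0.00703, the lowest p of all stem-loops) and -0.13 at 10 months (SE 0.04, edgeR adjusted p = 0.0469). The call at 10 months ended in 30 of 48 fits without 1 library (edgeR adjusted p between 0.0259 and 0.0983), whereas the calls of mir-212 at 6 months and over both ages, and of mir-132 at each age and over both, held in every such fit.

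**Figure D3:**
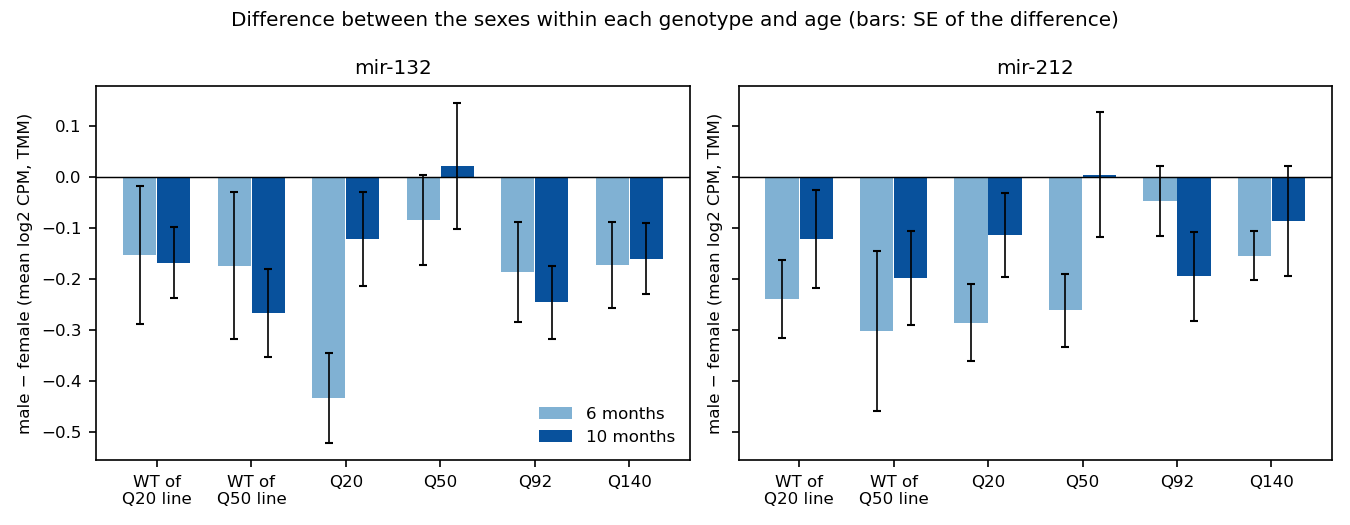
Bars give the male minus the female mean of log2 CPM (TMM scaled) of mir-132 (left) and mir-212 (right) within each genotype, at 6 months (light) and 10 months (dark), and the lines on the bars give the SE of the difference from 3 or 4 libraries per sex. All bars but those of Q50 at 10 months (0.02 for mir-132 and 0.004 for mir-212) point down.

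The direction was shared by nearly all genotypes. On the TMM-scaled log2 values the male mean was lower in 11 of 12 combinations of genotype and age for each stem-loop, the exception being Q50 at 10 months, and by CPM it was lower in 12 of 12. All males were under all females of their group in 3 of 12 combinations for mir-132 and in 5 of 12 for mir-212, the same counts by CPM and on the TMM-scaled values. Over the 434 stem-loops tested this held in 2.11% of all stem-loops and combinations by CPM. Among the combinations without overlap, Q20 at 6 months was the furthest apart for mir-132, with 3 females at 1543 ± 54.1 CPM and 4 males at 1172 ± 142 (SD). Female replicate 2 of this group, left out for its connectivity, stood at 1110 CPM for mir-132 and 215 CPM for mir-212. The highest Q20 male of 6 months stood at 1299 and 220 CPM. With that female kept, the sexes of this group overlap by CPM in both stem-loops, and both counts above include this group. With all libraries kept the sex difference of mir-132 at 6 months was -0.21 (edgeR adjusted p = 0.0147). Among the mice with the longest repeat, Q140 females and males at 10 months stood at 1090 ± 46.0 and 992 ± 70.3 CPM for mir-132 and at 191 ± 22.1 and 182 ± 16.9 for mir-212 (SD, n = 4 each).

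The sex difference was also measured in the control libraries alone, a check chosen after the data had been seen. There mir-132 gave -0.23 at 6 months and -0.18 at 10 months (permutation test, two-sided, p = 0.0119 and 0.00051, adjusted over 4 tests 0.0119 and 0.00102), and mir-212 gave -0.27 and -0.14 (permutation p = 0.00029 and 0.0115, adjusted 0.00102 and 0.0119; 12 males at each age against 11 females at 6 months and 12 at 10 months). Within L tags 2, 3, 4, 1 and 8 the male minus female difference was -0.22, -0.21, -0.21, -0.10 and -0.21 for mir-132 and -0.15, -0.18, -0.24, -0.04 and -0.20 for mir-212. It was negative in each tag and smallest in tag 1. The differences in controls alone took no account of L tag, and those libraries are also part of the main fit. At 6 months the sexes were uneven between tags, with 16 females and 8 males in tag 3 and 5 females and 11 males in tag 4 (all genotypes). Mean mir-212 was 216 CPM in tag 3 and 194 CPM in tag 4. Library totals averaged 6842949 in females and 6753488 in males at 6 months, and 6618316 and 6551543 at 10 months, so that depth differed by less than the SD of either sex.

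Whether the Q140 difference depends on sex was tested as an interaction. Over both ages the Q140 difference in males minus that in females was 0.09 for mir-132 (95% interval -0.08 to 0.26, edgeR adjusted p = 0.936) and 0.06 for mir-212 (-0.10 to 0.22, edgeR adjusted p = 0.967), with 0% called (29 at an unadjusted edgeR p under 0.05, 0 by DESeq2 and limma). At 10 months, Q140 minus the controls of the same sex was -0.18 in females and -0.16 in males for mir-132, and -0.26 and -0.20 for mir-212 (mean log2 CPM with TMM, 4 Q140 and 12 control libraries of each sex). At 6 months these differences were -0.15 and -0.09 for mir-132 and -0.09 and 0.02 for mir-212.

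Between the ages neither stem-loop passed. From 6 to 10 months mir-132 changed by -0.03 (SE 0.03, edgeR adjusted p = 0.431) and mir-212 by 0.06 (SE 0.03, edgeR adjusted p = 0.138), where 34.3% of stem-loops were called. No L tag was shared by the ages, so a difference of age and one of tag cannot be told apart. Mean CPM was 1191 ± 166 and 1161 ± 136 for mir-132 and 207 ± 23.6 and 215 ± 26.0 for mir-212 at 6 (SD, n = 46) and 10 months (SD, n = 48).

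The ratio of the pair needs no scaling between libraries, since both counts come from the same library. The count of mir-212 was 18.0% ± 1.67 of that of mir-132 (SD, n = 94), from 13.7% to 21.5%, and per stem-loop length it was 13.1% ± 1.21. The ratio of Q140 and controls did not differ detectably at either age in the main test. As log2 ratios, Q140 minus controls was 0.09 at 6 months and -0.06 at 10 months (exact permutation test, two-sided, p = 0.2 and 0.203, adjusted over 6 tests 0.403 for both). Q92 gave 0.16 at 6 months (exact permutation p = 0.0233, adjusted 0.14) and -0.04 at 10 months (adjusted 0.403), and Q50 gave 0.06 and 0.01 (adjusted 0.403 and 0.802), so that none of the 6 passed. With labels permuted within L tags instead, the differences at 6 months were 0.04 for Q140, 0.12 for Q92 and 0.14 for Q50 (exact permutation p = 0.529, 0.0594 and 0.0114, adjusted over 6 tests 0.635, 0.178 and 0.0685), and at 10 months they were -0.08, -0.05 and 0.01 (adjusted 0.236, 0.358 and 0.848). None passed there either. Within tags 2, 3, 4, 1 and 8 the ratio in Q140 minus controls was 0.16, 0.002, -0.06, -0.13 and -0.03, the value of tag 4 resting on 1 Q140 library, so that at 6 months the sign was not the same in every tag. With WT libraries alone as controls, the ratio at 10 months was -0.09 for Q140 and -0.07 for Q92 (exact permutation p = 0.0462 and 0.0268). Q92 at 6 months then stood at 0.13 (exact permutation p = 0.0478). Adjusted over 6 tests, p was 0.0955 for each, and none of the 6 passed. Over all genotypes, the sexes did not differ detectably in the ratio, with -0.03 at 6 months and 0.04 at 10 months, males minus females (permutation p = 0.487 and 0.219).

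Within the lines, Q20 minus its WT littermates gave -0.10 at 6 months and -0.13 at 10 months (exact permutation p = 0.326 and 0.0427, adjusted over 4 tests 0.565 and 0.171), and Q50 minus its WT littermates gave 0.05 and 0.01 (adjusted 0.565 and 0.752). None passed. The ratio was 0.09 higher on the log2 scale at 10 months than at 6 months (permutation p = 0.00239), at 18.5% ± 1.36 (SD, n = 48) against 17.5% ± 1.81 (SD, n = 46). By L tag it was 18.1% in tag 2, 18.2% in tag 3 and 16.3% in tag 4 at 6 months, and 18.3% in tag 1 and 18.7% in tag 8 at 10 months. Tag 4 thus stood apart from the other tags of both ages. The comparisons of the ratio between ages, sexes and littermates were added after the data had been seen.

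**Figure D4:**
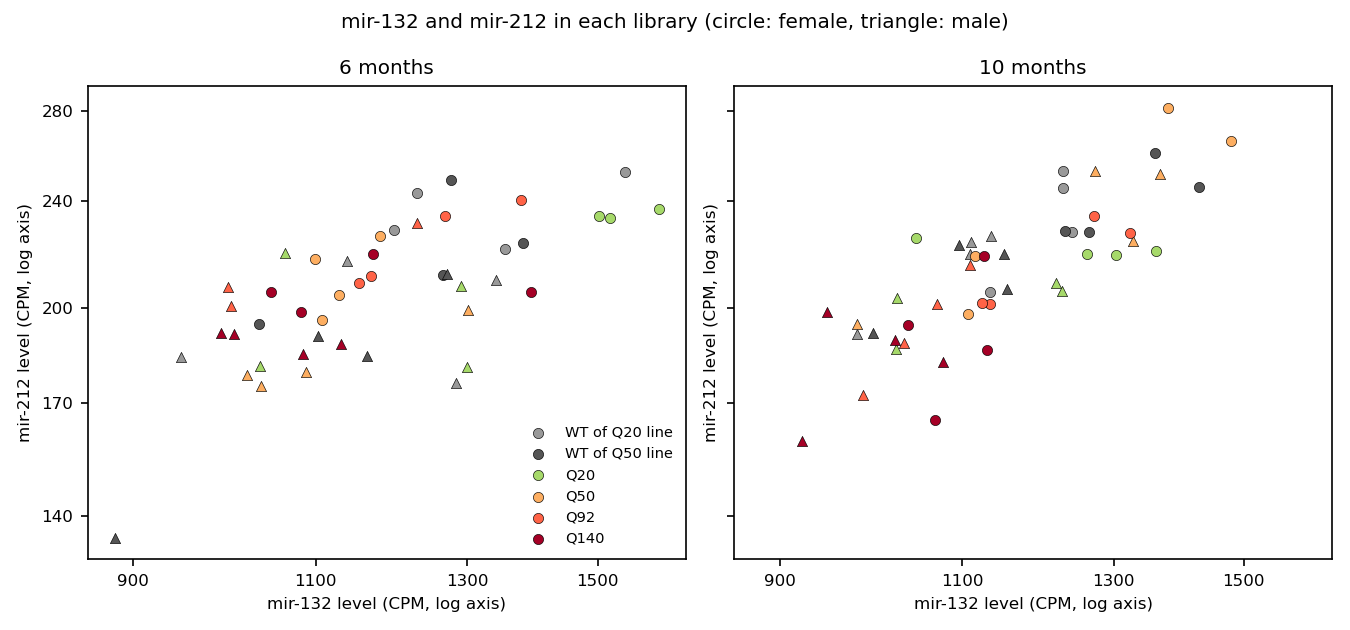
Each point is 1 library, with the level of mir-132 on the horizontal and of mir-212 on the vertical axis (CPM, both axes logarithmic), at 6 months (left, 46 libraries) and 10 months (right, 48 libraries), coloured by genotype, with females as circles and males as triangles. Libraries high in mir-132 tend to be high in mir-212, and males lie toward the lower left. For the log2 CPM plotted, without TMM scaling, r is 0.67 at 6 months and 0.81 at 10 months.

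The levels of the pair rose and fell together from animal to animal. Over the libraries of 6 months, log2 CPM (TMM scaled) of mir-132 and mir-212 had a Pearson r of 0.66 and a Spearman rho of 0.61 (n = 46, permutation p = 1e-05 and 3e-05). Over those of 10 months r was 0.79 and rho was 0.79 (n = 48, permutation p = 1e-05 for each, adjusted over the ages 1e-05, the smallest value that 100000 permutations can give). Without the 2 libraries farthest from the median of mir-132, r was 0.63 and 0.78. Removing the means of genotype, sex and L tag, with Q20 and WT pooled as controls, left an r of 0.65 and 0.69. The rho values were 0.48 and 0.65 (permutation p = 0.00065 for rho at 6 months and 1e-05 for the other values). Differences among the pooled groups were not removed.

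Within the 5 L tags r ran from 0.73 to 0.83 (6 to 24 libraries), and 4 of them passed after adjustment over the 5 by permutation, the exception being tag 2 with 6 libraries (exact permutation p = 0.114). Females had an r of 0.67 and 0.74 and males of 0.46 and 0.80 at 6 and 10 months, with rho of 0.66, 0.71, 0.25 and 0.80. Males at 6 months thus had the weakest relation by rho (permutation p = 0.241), although r passed (permutation p = 0.0274). Within single genotypes, with 7 or 8 libraries each, r ran from 0.39 to 0.94 and rho from 0.24 to 0.90 over 12 combinations of genotype and age, and 6 passed an exact permutation test adjusted over the 12. The values for Q140 were among the lowest, with r of 0.39 at 6 months and 0.47 at 10 months (exact permutation adjusted p = 0.342 and 0.318). Control groups had similar values, with r of 0.42 in Q20 at 10 months and 0.45 in WT of the Q20 line at 6 months (exact permutation adjusted p = 0.333 and 0.319). Whether r differs between genotypes was not tested.

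**Figure D5:**
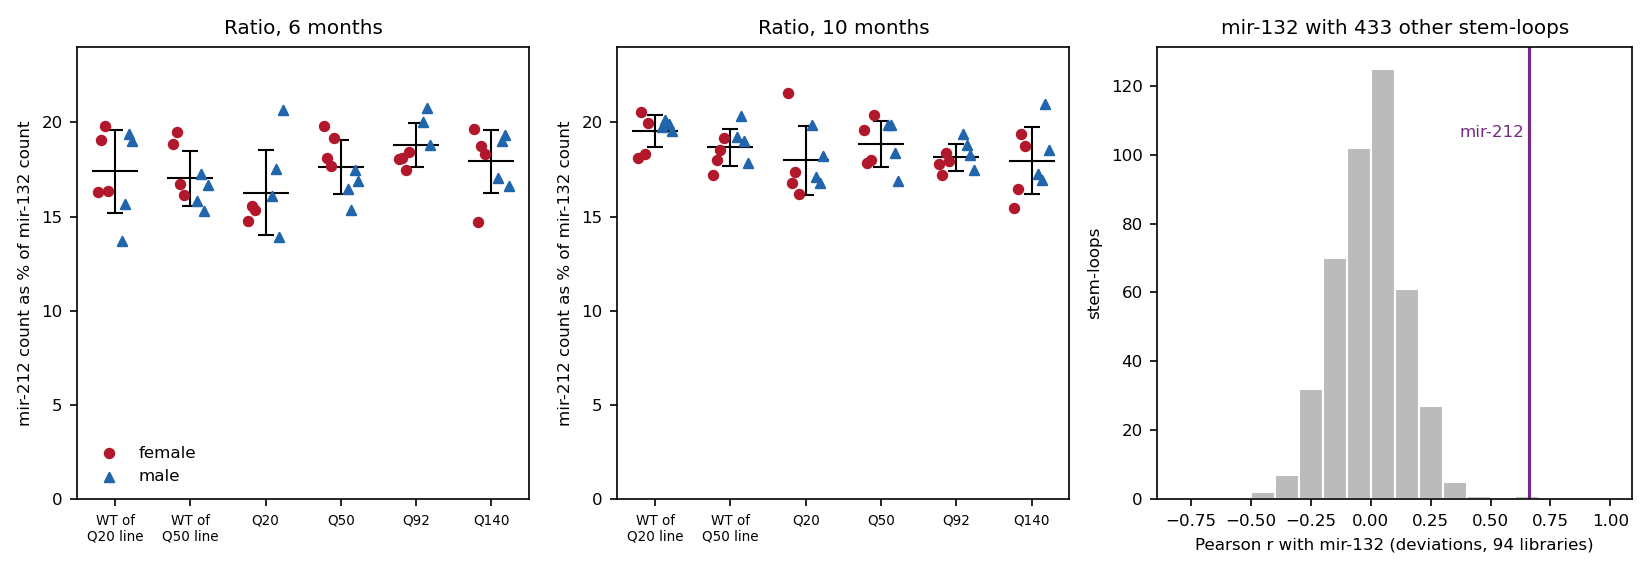
The first 2 panels show the count of mir-212 as a percentage of that of mir-132 in each library at 6 and 10 months, by genotype, with females as circles, males as triangles and the mean and SD in black, and all libraries lie between 13.7% and 21.5%. The third panel counts the 433 other stem-loops by their Pearson r with mir-132 over 94 libraries, with the line marking mir-212 at 0.66, above all others. Means of genotype (Q20 and WT pooled), sex and L tag were removed first.

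As a description of how particular this likeness is, each stem-loop tested was correlated with mir-132 over the 94 libraries of both ages. The values were deviations from genotype, sex and L tag means, with Q20 and WT pooled as controls. Of the 433 others mir-212 had the highest r with mir-132 (0.66), and mir-132 had the highest r with mir-212. The next highest was MI0000156 (0.41) for mir-132 and MI0001447 (0.43) for mir-212. The median r was 0.002 and 0.003, with 5th and 95th percentiles of -0.25 and 0.23 for mir-132 and of -0.28 and 0.24 for mir-212. At each age on its own each stem-loop was also first in the list of the other. The remaining stem-loops among the 5 most alike were MI0014697 (0.35), MI0010750 (0.35) and MI0014021 (0.34) for mir-132, and MI0000146 (0.43), MI0005521 (0.40) and MI0000173 (0.39) for mir-212. Mean CPM was 10.4, 2.65 and 4.72 for these neighbours of mir-132, and 1772, 6484 and 6436 for those of mir-212. Counts were not whole in 99.0% of libraries for MI0014697 and MI0000146 and in 100% for MI0000173. The lists had no ID in common, and the files do not pair these IDs with names. All these values share libraries, depth and scaling.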

How the data were processed

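Per its methods, the study sequenced strand-specific single-end small RNA reads, clipped them, aligned them to mouse genome mm10 with STAR and counted them with HTSeq. The submitters' processing notes name CASAVA 1.8.2. The authors deposited estimated counts per miRBase stem-loop, not normalized, and FPKM, which equal the count scaled by library total and stem-loop length. All columns belonged to a labelled sample.

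Counts were rounded and tested with edgeR 4.0.16 (quasi-likelihood, TMM) in R 4.3.3 for every stem-loop that reached 10 counts in 8 or more libraries of each age (99.98% or more of the counts of a library), with Benjamini-Hochberg adjustment over all 434 and a threshold of 0.05. The fits were made per age, with terms for genotype, sex and L tag, and ages were combined by signed z values, the log2 fold change being their mean. Intervals are 1.96 SE. Single measures were tested by permuting libraries (exact, or 100000 resamples). Each p-value sets a difference or a correlation against the variation between these animals, and is not itself a measure of that spread. Reads carried no molecular identifiers, so the counting errors given cover counting alone. The Q140 comparison alone was first run on simulated counts, without differences of sex or L tag. The changes simulated were larger than the Q140 differences of the pair over both ages. Fits of sex, CAG length and interactions were not tested in that way.

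The text names the pair and, for each member, the 5 stem-loops of most similar pattern. Alternatives were DESeq2 1.42.0, also with the study's replacement of outlying values, RLE size factors, a filter on a mean count of 50 or none, the dropped libraries kept, the L tag dropped, fits of the compared groups alone, replicate number as a block, WT libraries as the controls, limma 3.58.1 on log2(FPKM + 1) or log2(FPKM + 0.1), and fits that leave out 1 library. The leave-one-out fits of the sex comparison were added after the data had been seen. The members and lists were chosen with earlier results of these data known. Lists of other activity-regulated microRNAs and of cell type markers were written by name and could not be run, since no table used here pairs the IDs with names. No promoter sequence of the pair was used here. Sequences are from RefSeq (GRCm38.p6), where both members matched.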

Additional observations from a re-analysis of the deposited data

Results flagged for a closer look

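Of 66 sets of 4 libraries (one per stem-loop, ratio, genotype, age and sex where 4 were kept), 2 held a library far from the other 3, and chance gives about 1 in 20. In WT females of the Q20 line at 10 months, replicate 1 had 1134.57 CPM of mir-132, under the next lowest at 1229, and the gap took 0.875 of the whole range. In WT males of the same line and age, replicate 4 had 980.182 CPM of mir-132, under the next lowest at 1110, with a gap of 0.836 of the range. The standardized connectivity of these libraries was -0.23 and 0.13, inside the limit used. The cause was not tested.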

How the results depend on the processing

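Over 60 results, 540 of 582 alternatives other than leaving out a library kept the direction and the side of the threshold, and 45 results kept both in all of them. The values that did not follow on the log2 scale. The Q140 difference of mir-212 at 10 months was -0.23 without a count filter and no longer passed, that of mir-132 over both ages was -0.11 with WT controls alone and no longer passed, and that of mir-132 at 10 months was -0.16 and passed with outlying values replaced (DESeq2). The male minus female difference of mir-212 at 10 months no longer passed without a count filter (-0.12) or with limma on log2(FPKM + 1) or log2(FPKM + 0.1) (-0.12 for each). The cause was not tested. The ratio at 6 months moved within L tags from 0.09 to 0.036 in Q140 and from 0.062 to 0.14 in Q50, and neither passed.

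CAG length passed for mir-212 at 10 months with DESeq2 (-0.17), outlying values replaced (-0.17), RLE factors (-0.17), a mean count of at least 50 (-0.17), no L tag (-0.17), limma (-0.18 with either pseudocount) and WT controls alone (-0.19). Over both ages it passed for mir-132 and mir-212 with DESeq2 (-0.10 for each), outlying values replaced (-0.10 for each), a mean count of at least 50 (-0.10 for each) and limma (-0.11 for each, with either pseudocount), and for mir-132 with no L tag (-0.10). The cause was not tested.

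Values near 0 that never passed changed sign. Q50 against littermates at 10 months became 0.0092 for mir-132 and 0.012 for mir-212 with a mean count of at least 50, and 0.064 and 0.066 with either limma setting, and for mir-212 with no L tag it became -0.0037 at 6 months and -0.0030 over both ages. Q50 against controls for mir-212 became 0.0024 over both ages with all libraries, 0.024 with either limma setting, and -0.0083 at 10 months with WT controls alone. Q20 against littermates for mir-212 at 6 months became -0.0070 with all libraries and -0.014 with either limma setting, and the ratio in Q50 at 10 months became -0.020 with WT controls alone.

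Leaving out 1 library gave -0.16 to -0.13 for the Q140 difference of mir-132 over both ages (the call ended in 3 of 94 fits), -0.17 to -0.13 for mir-212 (1 of 94), -0.26 to -0.19 for mir-212 at 10 months (6 of 48), -0.18 to -0.14 for mir-132 at 10 months (passed in 1 of 48) and -0.14 to -0.12 for the sex difference of mir-212 at 10 months (ended in 30 of 48). For CAG length it gave -0.18 to -0.14 for mir-212 at 10 months (passed in 16 of 48), -0.11 to -0.087 for mir-132 over both ages (8 of 94) and -0.11 to -0.083 for mir-212 (7 of 94). Near 0 it gave -0.019 to 0.013 for mir-212 in Q50 over both ages, -0.021 to 0.0059 for mir-212 in Q92 over both ages, -0.0043 to 0.048 for mir-132 in Q50 at 10 months and -0.0059 to 0.033 for the ratio in Q50 at 10 months.

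The labels do not say that a replicate number marks shared animals or litters, so the numbers were not taken as pairs. Same-numbered libraries had a mean correlation of deviations of -0.02 at 6 months and 0.08 at 10 months, against 0.0056 and -0.03 for different numbers (71 of 242 and 123 of 264 pairs over 0.1, with 5 of 46 and 22 of 48 libraries closest to their own number of 4, at 10 months a hint from the data, not the design). A replicate block changed 1 call, that of CAG length for mir-212 at 10 months (-0.17, adjusted p = 0.0294).

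The number of stem-loops called, which sets the background shares, moved with the setting. Against the main 10, 10 and 22 for Q140 (6 months, 10 months, both ages) it ran from 0 to 27, 1 to 12 and 10 to 42, against 5, 30 and 43 for sex from 4 to 12, 12 to 31 and 19 to 45, against 12, 2 and 13 for CAG length from 1 to 14, 1 to 3 and 7 to 23, and against 16 for Q50 at 10 months from 0 to 21. The counting error of mir-212, up to 3.40%, is below the spread between animals, so the number of animals limits these comparisons more than depth. Line and CAG length (Q92, Q140), sex and cage, and also age and tag, cannot be told apart.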
